A study of Oryctolagus cuniculus with 8 samples.

Results

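The genes described here are NR3C1, NR3C2 and CRH, which encode the glucocorticoid receptor, the mineralocorticoid receptor and corticotropin-releasing hormone. They were found on the array by their symbol or full gene name in the annotation of every probe that is not a control, which gave 5 probes of 43603, for 3 genes of the 23395 genes and transcripts that the probes name. NR3C1 had 3 probes, and NR3C2 and CRH had 1 probe each.

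Forebrain RNA came from rabbit pups of the New Zealand breed, all born preterm by Caesarean section, on day 29 of a gestation of 32 days, which were kept in an incubator, fed formula by gavage and sampled on postnatal day 14. In the treated group 4 pups had received intramuscular dexamethasone, a synthetic glucocorticoid, at 0.25 mg/kg given 2 times a day for no longer than 5 days, and in the control group 4 pups had received saline. The design text calls the samples of a group biological replicates, but the days on which dexamethasone was given and the interval to sampling are not stated in the sources used here. Every pup was preterm and formula-fed, so the saline group is a preterm control and not a term one.

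The 8 samples were read on 4 Agilent 2-colour arrays. An array carried 2 samples, always from 1 group, with odd sample numbers in Cy3 and even ones in Cy5, and each sample was read from its own dye. Slide 1 and scan 1 held all saline arrays, and slide 2 and scan 2 all dexamethasone arrays, so slide, scan and treatment cannot be told apart for any value that follows. Between 39.1% and 64.3% of the spots were well above background in a sample, and within each dye the saline samples had the lower shares. Marker lists of brain regions were also read. Among hypothalamic markers 7 of 9 genes with a probe could be tested, and among telencephalic markers 3 of 5. The counts were 3 of 7 for hindbrain and cerebellar markers and 2 of 5 for pituitary ones. They are not counts of detection, since a test also needed 3 or more values in each group. SST (hypothalamus) and PRL (pituitary, named after its values were seen) had a probe well above background in 8 of 8 samples yet went untested. POMC is on both the hypothalamic and the pituitary list. The counts do not check that the tissue is forebrain.

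The glucocorticoid and mineralocorticoid receptors are closely related transcription factors of the nuclear receptor family that bind the same adrenal steroids. The mineralocorticoid receptor binds them with high affinity and is largely occupied at resting hormone levels, whereas the glucocorticoid receptor is filled as the hormone rises, and dexamethasone acts mainly on the latter. In the brain the glucocorticoid receptor is found in most neurons and glia and the mineralocorticoid receptor above all in the hippocampus and other limbic areas. Corticotropin-releasing hormone is the peptide with which neurons of the hypothalamic paraventricular nucleus drive pituitary corticotropin and so adrenal steroid output. Glucocorticoids restrain its gene there, and it is also made in the cortex, hippocampus and amygdala.

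The probe sequences show which stretch of each transcript was measured, and so which values share a target. They are given as the deposited array files hold them, 5′ to 3′ in the sense of the transcript, with positions on the rabbit build oryCun2. Capitals mark the stop codon that ends the CRH probe, and the other probes carry no capitals.
NR3C1 A_04_P003298: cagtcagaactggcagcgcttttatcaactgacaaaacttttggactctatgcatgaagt
NR3C1 A_04_P003297: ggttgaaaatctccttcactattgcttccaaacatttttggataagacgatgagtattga
NR3C1 A_04_P003296: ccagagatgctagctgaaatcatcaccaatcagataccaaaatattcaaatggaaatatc
NR3C2 A_04_P101322: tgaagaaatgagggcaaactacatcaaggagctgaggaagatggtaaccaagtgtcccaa
CRH A_04_P073492: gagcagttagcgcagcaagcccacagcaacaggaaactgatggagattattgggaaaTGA

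All the NR3C1 probes lie in the coding sequence of the ligand-binding domain, within 184 bases of the transcript NM_001082147, of which they cover 180. They are next to each other and share this target, so they are repeat readings of 1 short stretch and not independent measures of the gene. A_04_P003298, called the upstream probe from here on, matches transcript bases 2108 to 2167 and chr3:25231179-25231474 on the minus strand. These 60 bases span 296 bases of the genome, so the probe crosses a gap of 236 bases between aligned blocks. A_04_P003297, the middle probe, matches bases 2168 to 2227 and chr3:25231119-25231178, and A_04_P003296, the downstream probe, matches bases 2232 to 2291 and chr3:25231055-25231114, both without a gap. The GC content of the upstream probe is 41.7%, and that of the middle and of the downstream probe is 35%.

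The NR3C2 probe is listed under the transcript ENSOCUT00000003136 and is named by its description only. It covers bases 2681 to 2740 of it, at chr15:16474194-16474253 on the plus strand, also within the ligand-binding domain, and has a GC content of 45%. The CRH probe matches bases 525 to 584 of NM_001199007 at chr3:82082213-82082272 on the minus strand, with a GC content of 48.3%, and encodes the end of the mature peptide up to the stop codon. Each receptor probe has 1 reading frame without a stop codon. In the CRH probe the coding frame ends at the stop codon, and 1 other frame has none. Although the receptors are paralogs, the longest run of bases that an NR3C1 probe shares with the NR3C2 probe is 5 or 6 bases, no longer than the 5 to 7 bases shared by any pair among the 5 probes.

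All the probes were dim. Their mean spot intensities ran from 117 to 410 scanner units, while the medians of the 153 negative-control spots were 94.1 to 111 in Cy3 and 45.7 to 59.1 in Cy5. Of the 40 values, 26 were well above background by the scanner software's own test, and 0 were saturated or marked as outliers. Detection differed by dye. In Cy5 the probes stood 2.60 to 8.11 times above the negative-control median of their sample, and in Cy3 1.23 to 2.92 times.

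The upstream NR3C1 probe passed this test in 3 of 4 samples given saline and in 4 of 4 given dexamethasone. The middle and the downstream NR3C1 probe were well above it in all 4 Cy5 samples and in 0 of 4 Cy3 samples. The NR3C2 probe was above it in 1 of 4 saline samples and 3 of 4 dexamethasone samples. The CRH probe was above it in 7 of 8 samples, with saline 3 the exception. Such an imbalance was common on these arrays, where 26.3% of the tested probes were well above background in more dexamethasone than saline samples and 2.15% in more saline samples.

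**Figure D1:**
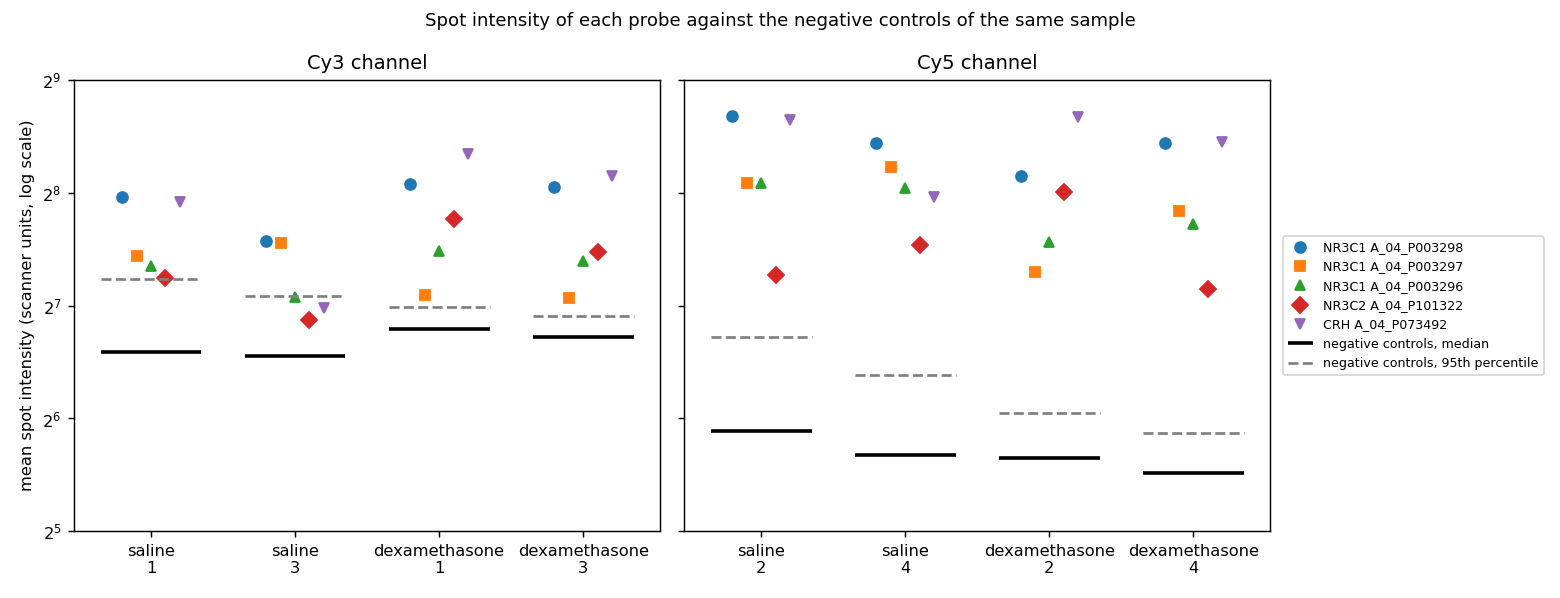
Mean spot intensity in scanner units (log scale) of the 5 probes in each sample, with the Cy3 samples on the left and the Cy5 samples on the right; the black line is the median and the dashed line the 95th percentile of the 153 negative-control spots of that sample. In Cy3 several probes lie near the dashed line, and in Cy5 all lie above it.

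NR3C1 was measured without a called difference. At the upstream probe the log2 normalised intensity was 8.93, 9.07, 8.80 and 8.82 in saline samples 1 to 4, and 8.83, 8.61, 8.87 and 8.92 in dexamethasone samples 1 to 4. The groups overlapped, with the highest value in saline 2 and the lowest in dexamethasone 2. The saline mean was 8.90 ± 0.12 (SD, n = 4) and the dexamethasone mean 8.81 ± 0.13 (SD, n = 4). The log2 difference, dexamethasone minus saline, was -0.096 (SE 0.12, 95% interval -0.37 to 0.17, limma with Benjamini-Hochberg adjusted p = 0.722 over all probes). On a linear scale this is a ratio of 0.936 with an interval from 0.776 to 1.13. The log2 difference was -0.032 without saline 2, -0.022 without dexamethasone 2, -0.0031 without array 1, -0.011 without array 3, -0.19 without array 2 and -0.18 without array 4. It was -0.28 and -0.39 with the processed signals, after quantile normalisation and after scaling to the 75th percentile, and -0.20 with the mean of all 3 probes.

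The middle NR3C1 probe differed most. Its log2 normalised intensity was 8.48, 8.68, 8.70 and 8.71 in saline samples 1 to 4, and 8.06, 8.30, 8.03 and 8.76 in dexamethasone samples 1 to 4. Dexamethasone samples 1, 2 and 3 lay below every saline sample, and dexamethasone 4 was the highest of all 8. The saline mean was 8.64 ± 0.11 (SD, n = 4) and the dexamethasone mean 8.29 ± 0.34 (SD, n = 4), a log2 difference of -0.36 (SE 0.16, 95% interval -0.71 to -0.0020) with an unadjusted p of 0.0490 and a limma Benjamini-Hochberg adjusted p of 0.392. An unadjusted p under 0.05 was reached by 12.7% of the 20704 probes tested, and 1 of the 5 probes described here reached it. The 4 dim values of this probe were those in Cy3, where the log2 difference was -0.55 between 2 and 2 samples, against -0.17 in Cy5, where all values were well above background. The log2 difference was -1.56 with the scanner's processed signals scaled to the 75th percentile, which replaces both the background correction and the normalisation, -0.77 in the deposited series table and -0.25 without array 3.

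At the downstream NR3C1 probe the log2 normalised intensity was 8.45, 8.69, 8.50 and 8.55 in saline samples 1 to 4, and 8.35, 8.38, 8.32 and 8.61 in dexamethasone samples 1 to 4. Again dexamethasone 1, 2 and 3 lay below all saline samples and dexamethasone 4 lay among them. The log2 difference was -0.13 (SE 0.10, 95% interval -0.37 to 0.10, limma with Benjamini-Hochberg adjusted p = 0.563). Within a dye it was -0.14 in Cy3 and -0.13 in Cy5, each between 2 and 2 samples, and over the 22 other settings it ran from -0.60 to -0.083. Over the 8 samples, after the mean of each dye was taken away, the downstream probe correlated with the middle probe at r = 0.85 and with the upstream probe at r = 0.78, and the upstream with the middle probe at r = 0.38. The 8 samples share arrays and the probes share a target, so these values describe how alike the readings were.

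NR3C2 was nearly the same in all saline samples after normalisation only. Its log2 normalised intensity was 8.27, 8.27, 8.26 and 8.29 in saline samples 1 to 4, an SD of 0.01. Of these 4 values 3 were not well above background. In dexamethasone samples 1 to 4 it was 8.58, 8.59, 8.44 and 8.23. The scanner's processed signals of this probe were 70.4, 75.9, 66.2 and 155 in saline samples 1 to 4. In dexamethasone samples 1 to 4 they were 131, 138, 86.1 and 64.8. The narrow saline spread thus belongs to the normalised scale, with its offset of 50. On that scale dexamethasone 1, 2 and 3 lay above every saline sample. Dexamethasone 4 was the lowest of all 8, so the groups overlapped there through that sample alone. The means were 8.27 ± 0.01 (SD, n = 4) and 8.46 ± 0.17 (SD, n = 4), a log2 difference of 0.19 (SE 0.11, 95% interval -0.07 to 0.44, limma with Benjamini-Hochberg adjusted p = 0.479 over all probes). It was 0.25 in Cy3 and 0.13 in Cy5, and the ratio of 1.14 had an interval from 0.953 to 1.36. With the processed signals the log2 difference was 0.60 after quantile normalisation and 0.47 after scaling to the 75th percentile. It was 0.12 with loess followed by quantile normalisation over the 8 channels, 0.058 without array 3 and 0.31 without array 4.

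CRH differed between the saline arrays more than between the groups. Its log2 normalised intensity was 8.92 and 9.04 in saline 1 and 2, which shared array 1, and 8.45 and 8.50 in saline 3 and 4, which shared array 2. In dexamethasone samples 1 to 4 it was 9.03, 8.91, 8.95 and 8.90. All dexamethasone samples and both samples of array 1 lay close together, and both samples of array 2 lay below them. The saline mean was 8.73 ± 0.30 (SD, n = 4) and the dexamethasone mean 8.95 ± 0.06 (SD, n = 4), a log2 difference of 0.22 (SE 0.15, 95% interval -0.13 to 0.57, limma with Benjamini-Hochberg adjusted p = 0.536 over all probes). Without array 2 the log2 difference was -0.034, the opposite sign, and without array 1 it was 0.47. It was 0.097 without saline 3, 0.12 without saline 4 and 0.34 without saline 2. Array 2 also had the most outlier spots of all, 2486 in saline 3 and 3022 in saline 4 against 197 to 1121 in the other samples, and the part of this in the CRH value was not tested. The CRH spot itself was marked as an outlier in 0 samples. The linear ratio of 1.16 had an interval from 0.912 to 1.49. The log2 difference was 0.63 with the processed signals after quantile normalisation, 0.58 with them scaled to the 75th percentile, 0.43 in the deposited series table and 0.12 with loess followed by quantile normalisation over the 8 channels.

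**Figure D2:**
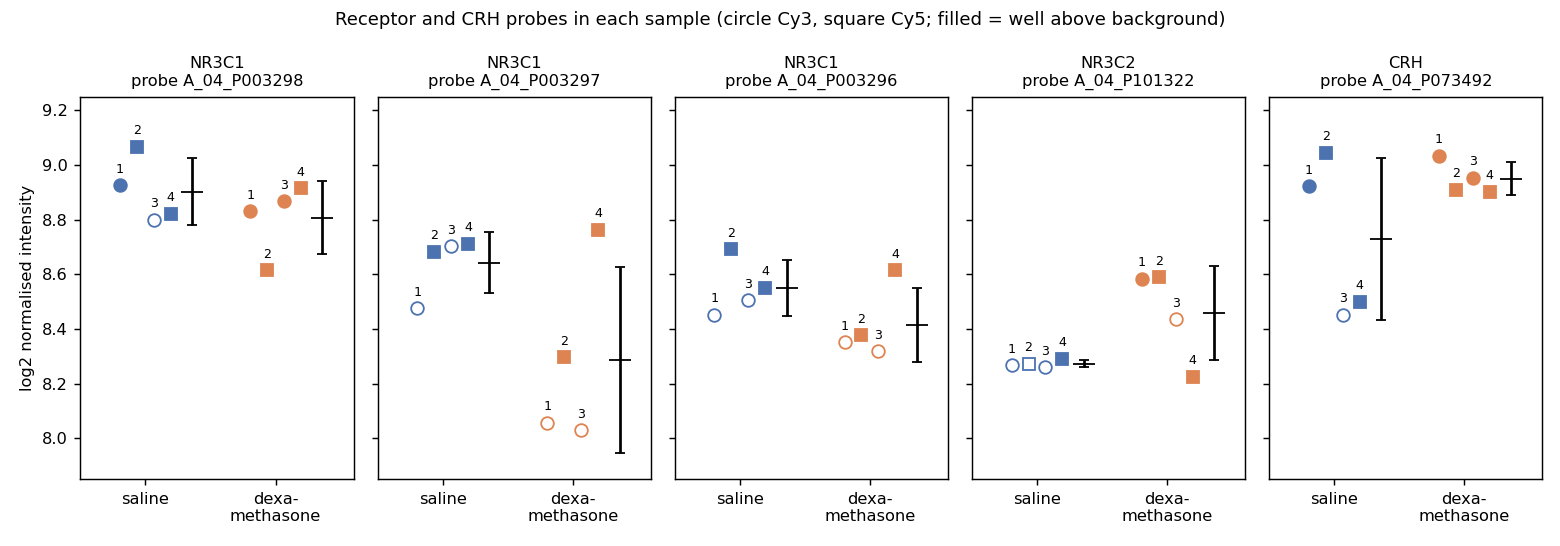
Log2 normalised intensity of the 5 probes in each of 8 samples, saline in blue and dexamethasone in orange, numbered by replicate, as circles for Cy3 and squares for Cy5; filled symbols were well above background, and the bars are the group mean ± SD (n = 4). In the panels of the middle and downstream NR3C1 probes and of NR3C2, dexamethasone 4 lies apart from dexamethasone 1 to 3, and in the CRH panel saline 3 and 4 lie below the rest.

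None of the 5 probes passed an adjusted p of 0.05, where 0.0338% of the probes tested did (limma with Benjamini-Hochberg adjustment over 20704 probes). In the fit over genes, with the brightest probe for each gene, the adjusted p (limma, Benjamini-Hochberg over 11255 genes) was 0.702 for NR3C1, 0.450 for NR3C2 and 0.510 for CRH. None of the 3 genes was called, against 0.0622% of the genes tested. The groups did not overlap in 0 of the 3 genes, while in 13.4% of the genes tested they did not overlap. The median SE of a log2 difference over all genes was 0.13, and the SEs were 0.12 for NR3C1, 0.11 for NR3C2 and 0.15 for CRH. The fit used 1 array correlation, 0.239, for all genes. The array means of CRH were 8.98 and 8.48 in saline and 8.97 and 8.93 with dexamethasone. Its SE and interval can therefore understate the spread between arrays. The forebrain is a mixture of cells, so fewer cells that express a receptor and less receptor RNA in each cell cannot be told apart here.

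**Figure D3:**
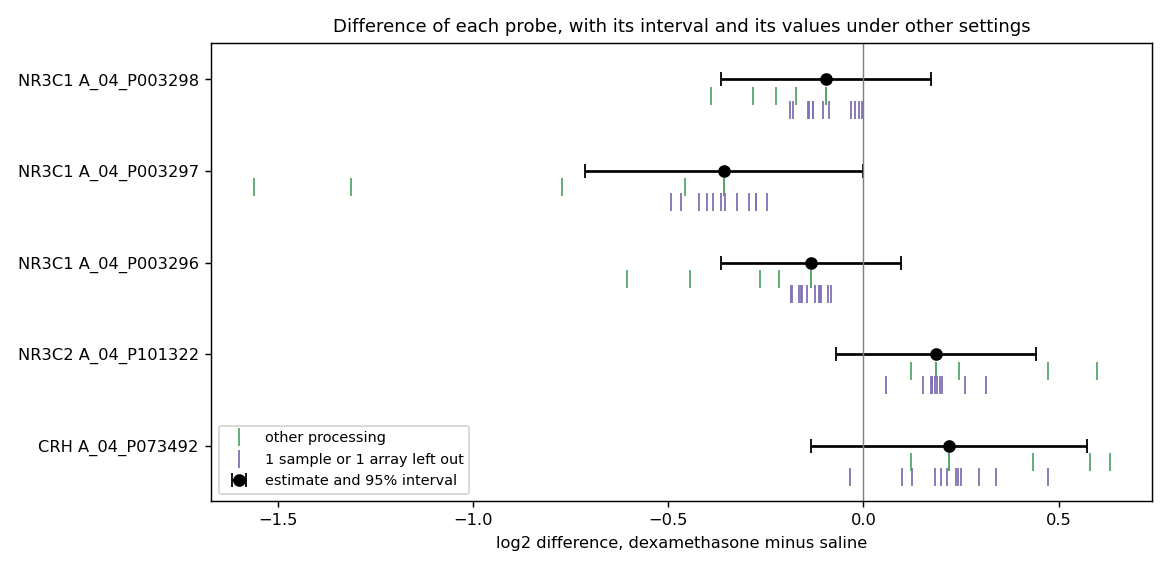
Log2 difference, dexamethasone minus saline, of each probe, as a black point with its 95% interval; green ticks are the values under other processing and purple ticks those with 1 sample or 1 array left out. All NR3C1 values lie below 0 and all NR3C2 values above 0, and CRH lies above 0 except at -0.034, without array 2. Several green ticks of each probe repeat the main estimate.

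The correlations between NR3C1 and NR3C2 over all samples were negative. Over the 8 samples, with the mean of each dye taken away, NR3C2 correlated with the upstream, middle and downstream NR3C1 probes at r = -0.64, -0.90 and -0.86. These are descriptions over samples that share arrays and carry no test. Group means were not taken away, so they include the difference between the groups, which cannot be told apart from slide and scan. Within saline the normalised NR3C2 value ran only from 8.26 to 8.29, so these correlations do not show that the genes moved oppositely there. The log2 value of NR3C2 minus that of the upstream NR3C1 probe was -0.66, -0.79, -0.54 and -0.53 in saline samples 1 to 4, and -0.25, -0.025, -0.43 and -0.69 in dexamethasone samples 1 to 4. Only its change between samples can be read, since the probes differ in how strongly they bind. It was higher in dexamethasone 1, 2 and 3 than in any saline sample and lay within the saline range in dexamethasone 4. The mean change was 0.28 against the upstream probe, 0.54 against the middle probe and 0.32 against the downstream probe, and no test was made of it.

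The genes whose values over the 8 samples were most like those of each gene were found among 5690 genes with a symbol and all 8 values, again with the dye means taken away. For NR3C1 they were DNAJB14 (r = 0.96), PPP1R1A (r = 0.95) and TSPAN12 (r = 0.94). NR3C1 was read here from its upstream probe, which correlated with the middle probe at only r = 0.38. For NR3C2 they were ZNF565 (r = 0.97), DDX31 (r = 0.97) and CPSF2 (r = 0.96). For CRH they were GUCY1B1 (r = 0.99), TMEM50B (r = 0.99) and KLHL32 (r = 0.99). A correlation above 0.9 was found for 10 genes with NR3C1, for 47 with NR3C2 and for 216 with CRH, whose values set array 2 apart from the other arrays. The named genes have the highest of many correlations over 8 samples, with group means left in, and no test was made.

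CRH was next set beside the other peptides of the hypothalamus and the stress axis. Vasopressin, encoded by AVP, acts with CRH on the pituitary, and its log2 normalised intensity was 8.90, 10.19, 10.28 and 11.16 in saline samples 1 to 4, and 8.48, 8.49, 11.85 and 9.77 in dexamethasone samples 1 to 4. Oxytocin (OXT), made in the same hypothalamic nuclei and chosen here after its values were seen, was at 10.60, 12.09, 11.41 and 12.92 in saline and at 10.24, 10.09, 14.12 and 12.72 with dexamethasone on the same log2 scale. Both were lowest in dexamethasone 1 and 2 and highest in dexamethasone 3, and both groups spread widely. AVP ran over a 10.3-fold range and OXT over a 16.3-fold range across the 8 samples. CRH is given no such range, since its lowest sample, saline 3, was not well above background.

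With the dye means taken away, AVP and OXT correlated with each other at r = 0.94 over the 8 samples, and CRH correlated with AVP at r = -0.38 and with OXT at r = -0.16. The 7 tested hypothalamic markers deviated from their own means by -0.45 to 0.40 log2 units on average under saline and by -0.83 to 1.00 under dexamethasone, and the log2 of their summed intensities was 13.8 to 14.6 and 13.7 to 15.2. How much of the CRH values follows the amount of hypothalamus in a sample was not tested.

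**Figure D4:**
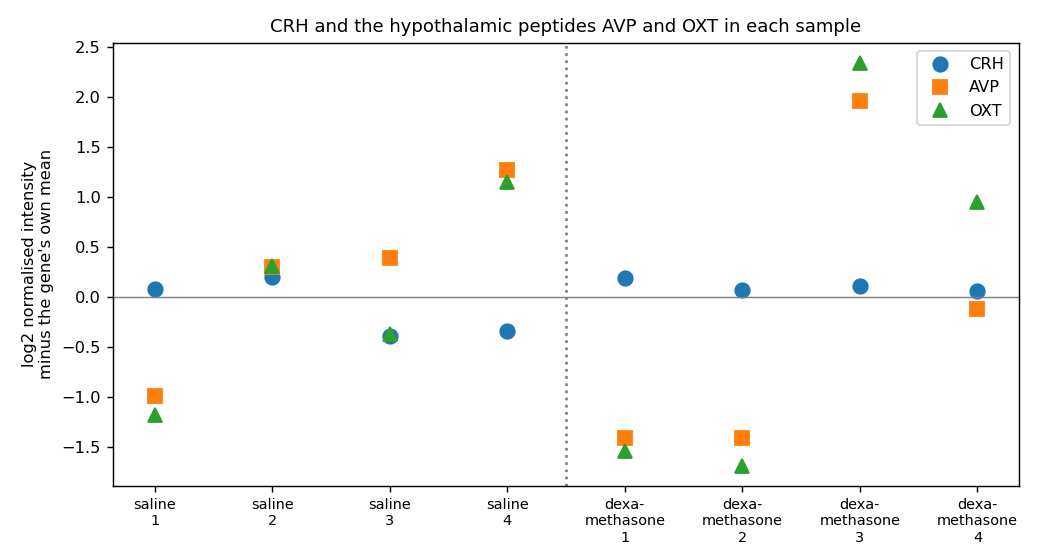
Log2 normalised intensity of CRH, AVP and OXT in each of the 8 samples, as the difference from the gene's own mean over the samples; the dotted line parts saline from dexamethasone. AVP and OXT move together over several log2 units, lowest in dexamethasone 1 and 2 and highest in dexamethasone 3, while CRH is lowest in saline 3 and 4, of which saline 3 was not well above background.

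The rest of the CRH family and of the peptide axis was thinly covered. Of its 12 listed genes 6 had a probe and 5 were tested, with 4 differences above 0 and a median of 0.07. Of the 5, 0 rose and 0 fell (limma, with the Benjamini-Hochberg adjusted p called under 0.05). Over all genes tested the share called was only 0.0622%, so 0 calls in this or a later list says little about its genes. UCN, which encodes urocortin, a CRH-related ligand, was well above background in 8 of 8 samples with a log2 difference of 0.04, and UCN3, another such ligand, in 2 of 8. The CRH receptors CRHR1 and CRHR2, the binding protein CRHBP and the ligand UCN2 had no probe named for them. POMC, the precursor of corticotropin, was measured at 13.14 ± 0.12 in saline and 13.28 ± 0.11 with dexamethasone (log2, SD, n = 4 each), a log2 difference of 0.15 (SE 0.12, limma Benjamini-Hochberg adjusted p = 0.552) that was -0.55 with loess followed by quantile normalisation.

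PCSK2, a convertase that cuts peptide precursors, had the largest difference of that list. Its log2 intensity was 9.24, 9.10, 9.23 and 9.16 in saline samples 1 to 4 and 10.00, 9.75, 9.97 and 9.23 in dexamethasone samples 1 to 4. Dexamethasone 4 again lay among the saline samples. The log2 difference was 0.55 (SE 0.16) with a limma Benjamini-Hochberg adjusted p of 0.296, so it was not called. AVP had a log2 difference of -0.49 with an SE of 0.87 and an interval from -2.48 to 1.5, which became 0.10 without array 2 and 0.68 without array 3.

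Other steroid receptor genes were dim where they are reported here. The progesterone receptor gene PGR cleared background in 2 of 8 samples, and the oestrogen receptor genes ESR1 and ESR2 in 0 of 8.

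Steroid receptors are held ready for hormone by chaperones. Of 16 listed chaperone and co-chaperone genes 8 had a probe and 7 were tested. Among these 0 rose and 0 fell, against 0.0622% called of all genes tested. For the 7 genes 6 differences lay above 0, and the median log2 difference was 0.14. Over all genes tested the median was 0.02 and 54.3% lay above 0. HSP90AB1, which encodes a form of the chaperone HSP90, was at 11.41 ± 0.29 (log2, SD, n = 3) in saline and 11.73 ± 0.49 (n = 4) with dexamethasone, with a fitted log2 difference of 0.38 (SE 0.31) in which 1 saline outlier spot was left out, and its tested probes ranged from -0.023 to 0.38. HSPA8, an HSP70 chaperone, had a log2 difference of 0.32 (SE 0.24) that was 0.0016 without array 2, 0.64 without array 1, 0.15 without saline 4 and 0.17 without dexamethasone 1. FKBP4, an HSP90-bound immunophilin that aids receptor transport, had one of 0.14 (SE 0.12, also with 3 saline values). With loess followed by quantile normalisation the differences of all these genes were below 0, at -0.13, -0.027 and -0.20, and so was the list's median, at -0.20. HSP90AA1 had no probe named for it.

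Steroid access to the receptors is set by enzymes and transporters, and of 10 such genes 7 had a probe and 3 were tested. HSD11B1 and HSD11B2, which regenerate and inactivate endogenous glucocorticoid, cleared background in 2 and in 0 of 8 samples and so went untested. ABCB1 encodes P-glycoprotein, the efflux pump of the blood-brain barrier that carries dexamethasone out of the brain. Its log2 intensity was 9.59, 9.94 and 9.47 in saline 1 to 3, with the spot of saline 4 left out as an outlier, and 10.30, 10.31, 10.45 and 10.64 in dexamethasone samples 1 to 4. The groups did not overlap, and the log2 difference was 0.73 (SE 0.14, 95% interval 0.41 to 1.06), but the limma Benjamini-Hochberg adjusted p was 0.174. Over the 23 other settings the log2 difference ran from 0.61 to 1.34, highest in the deposited series table. Endothelial markers, which come from the vessels where this pump sits, had a median log2 difference of 0.05 over 3 tested of 6 with a probe, with mean deviations of -0.29 to 0.24 under saline and -0.16 to 0.13 under dexamethasone and summed log2 levels of 12.0 to 13.2 and 12.3 to 12.7. 3 endothelial genes were above background in no sample.

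SRD5A2 and SRD5A1, the steroid 5-alpha reductases, had log2 differences of -0.31 (SE 0.14) and 0.10 (SE 0.11), neither called. The tested SRD5A2 probes ranged from -0.31 to 0.12 and so disagreed in sign, and those of SRD5A1 ranged from 0.016 to 0.34.

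Of 23 coregulator genes, which carry the receptors' effect to chromatin, 15 had a probe and 14 were tested. Among these 0 rose and 0 fell, against 0.0622% called of all genes tested. Of the differences 5 lay above 0 and 9 below, with a median of -0.05. SMARCA2, which encodes the BRM motor of SWI/SNF chromatin remodelling, was between 12.72 and 13.06 (log2) in the 4 saline samples and at 12.33, 12.27, 12.26 and 11.77 in dexamethasone samples 1 to 4. The groups did not overlap, and the log2 difference was -0.76 (SE 0.16, 95% interval -1.14 to -0.39, limma Benjamini-Hochberg adjusted p = 0.198). A further SMARCA2 probe had a log2 difference of -0.998. MED14, a Mediator subunit bound by the glucocorticoid receptor, had 0.31 (SE 0.12), and the acetyltransferase CREBBP 0.22 (SE 0.11), neither called.

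Genes known as targets of the receptors were also read. Of 23 listed, 17 had a probe and 14 were tested. Among these 0 rose and 0 fell, near the share of 0.0622% called over all genes tested. Of the differences 7 lay above 0 and 7 below, and the median was 0.00 on the log2 scale. TSC22D3, which encodes the glucocorticoid-induced leucine zipper, was at 8.35, 8.46, 8.28 and 8.32 (log2) in saline samples 1 to 4 and at 8.57, 8.47, 8.64 and 8.50 in dexamethasone samples 1 to 4. The groups did not overlap, the closest values being 8.46 and 8.47, and the log2 difference was 0.19 (SE 0.10, limma Benjamini-Hochberg adjusted p = 0.399). DDIT4, an inhibitor of mTOR signalling, had 0.48 (SE 0.22), and TXNIP, a thioredoxin-binding protein, 0.64 (SE 0.29) at the probe that stood for it and -0.07 at another probe. SGK1, a kinase induced through both receptors, had 0.01 (SE 0.12), with a sign that turned in 7 of 23 other settings. The 4 tested SGK1 probes ranged from 0.01 to 0.22, and the probe that stood for the gene was the lowest. FKBP5, a further classical target, cleared background in 1 of 8 samples and so went untested, and PER1 had no probe named for it.

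Over these 6 lists together, 56 of 89 genes had a probe and 43 were tested. After Benjamini-Hochberg adjustment limma called 0 of the 43 as higher and 0 as lower, against 0.0622% called of all genes tested. An unadjusted limma p under 0.05 was reached by 4 of the 43, or 9.30%, against 13.7% of all genes tested. The median log2 difference of the 43 was 0.04 and 24 of their differences lay above 0. The groups did not overlap in 4 of the 43, or 9.30%, below the 13.4% of all genes tested. These were ABCB1, SMARCA2, TSC22D3 and SCNN1A, a subunit of the epithelial sodium channel with a log2 difference of -0.26 (SE 0.14), which was named after its values were seen. Over the other settings the log2 difference ran from 0.37 to 0.93 for PCSK2, from -1.37 to -0.61 for SMARCA2, from 0.16 to 0.56 for MED14, from 0.059 to 0.46 for CREBBP, from 0.13 to 0.69 for TSC22D3, from 0.19 to 1.16 for DDIT4 and from 0.28 to 1.28 for TXNIP.

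**Figure D5:**
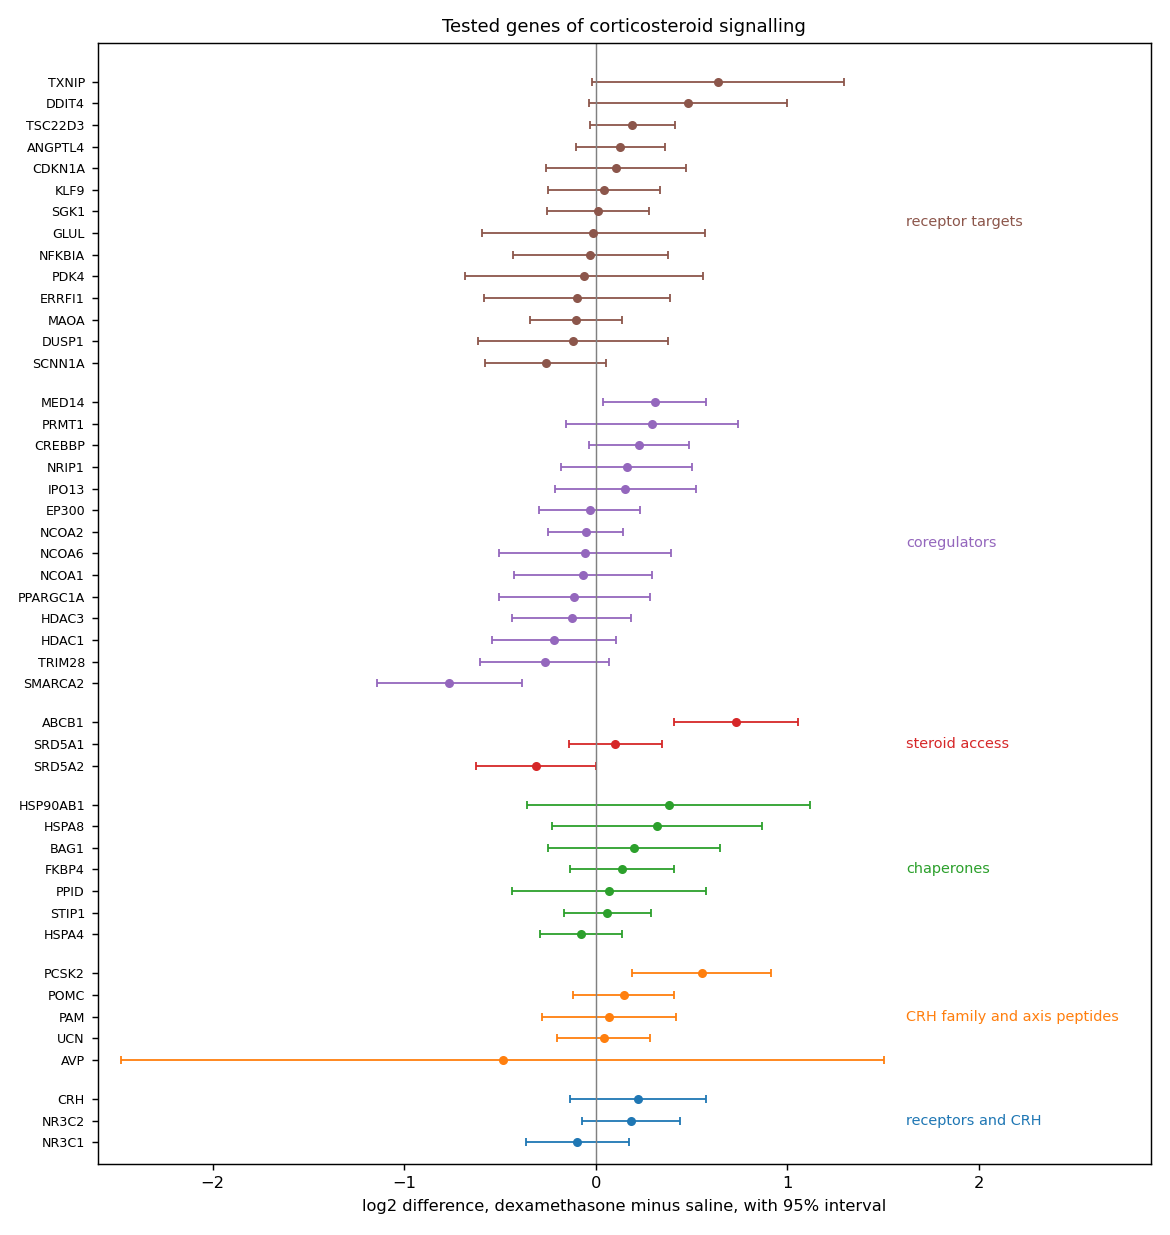
Log2 difference, dexamethasone minus saline, with its 95% interval, of NR3C1, NR3C2, CRH and the 43 tested genes of the lists of corticosteroid signalling, coloured by list. ABCB1 at 0.73 and SMARCA2 at -0.76 have intervals farthest from 0, and AVP has the widest interval. None of the genes was called, against 0.0622% of all genes tested.

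Markers of the brain regions and cells that could differ between samples were read beside the receptors. The 3 tested telencephalic markers had log2 differences from -0.95 to -0.0029, the latter for NEUROD2. Among them 0 were called, against 0.0622% of all genes tested. Their median of -0.74 was that of EMX2, named after its values were seen, whose tested probes ran from -0.74 to -0.12. No EMX2 probe was well above background in more than 5 of 8 samples. The mean deviation of the 3 markers was -0.35 to 0.59 under saline and -1.0 to 0.35 under dexamethasone. The log2 of the summed intensities of 2 of them ran from 10.2 to 11.2 and from 9.76 to 11.1. The 3 tested hindbrain and cerebellar markers had differences from -0.53 to -0.019 with a median of -0.30. Their summed log2 levels were 9.76 to 10.3 and 9.61 to 9.82 over 2 of them. A further 2, PAX2 and ATOH1, were above background in 0 samples. The 8 tested neuronal markers had a median of 0.14. Summed log2 levels over 7 of them were 16.8 to 17.2 in saline and 17.1 to 17.3 with dexamethasone. The 8 tested astrocyte markers had a median of 0.15, with summed levels over 6 of them of 12.69 to 12.83 and 12.70 to 13.03. The 3 oligodendrocyte and 4 microglial markers had medians of 0.03 and -0.05, and the 5 blood markers 0.17. Of the pituitary markers POMC and LHB were tested, with a median of -0.02. The part of these in the receptor and CRH values was not tested.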

How the data were processed

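Per the file headers, the deposited scanner output gives for each dye a mean and a local background intensity and a processed signal of every spot. It came from Agilent Feature Extraction 11.0.1.1 per the file headers, while the submitters' processing notes name 10.7.3.1. The deposited series table holds a signal per spot. The flags for spots well above background, saturated or outlying are those of the deposited files. Probes were named from the array's annotation and RefSeq names (mOryCun1.1).

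Intensities were corrected with normexp (offset 50), normalised by loess within arrays and Aquantile between them, and split into log2 values per channel, with outlier spots left out. A probe was tested if 4 or more of the 8 samples were well above background and each group had 3 or more values (20704 probes), and the brightest stood for a gene (11255 genes). The groups were compared in R 4.3.3 by limma 3.58.1, with a dye term and a random block for the array (consensus correlation 0.239 over genes), adjusted by Benjamini-Hochberg over all features. Values of 1 sample are limited by the number of arrays.

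The members and the lists were chosen with earlier results of these data known. The rule named every probe of the members, in each signalling list the 3 tested genes with the smallest p, genes fixed by name, and the 3 genes most like each member; of marker lists, the 2 brightest. Alternatives covered background correction, normalisation, filters, the probe rule, array block, dye term, replicate block, the deposited table, thresholds, and each sample and array left out. 1 listed gene is not reported here and is left out of the counts over its list.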

Additional observations from a re-analysis of the deposited data

Results flagged for a closer look

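In 39 groups of 4 samples, 1 sample lay far from the other 3 in 3 groups, where chance gives about 1 in 20. At the middle NR3C1 probe saline 1 was the lowest of its group at a log2 intensity of 8.48, with the others between 8.68 and 8.71. For SRD5A2, saline 2 was the lowest at 8.92, with the others between 9.12 and 9.16. For SMARCA2, dexamethasone 4 was the lowest at 11.77, with the others between 12.26 and 12.33.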

How the results depend on the processing

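The NR3C1, NR3C2 and CRH probes were called under none of the 22 other settings for each. The log2 difference lay below 0 in all 22 for the upstream (-0.39 to -0.0031), middle (-1.56 to -0.25) and downstream (-0.60 to -0.08) NR3C1 probes. It lay above 0 in all 22 for NR3C2 (0.06 to 0.60), and CRH (up to 0.63) turned only without array 2 (-0.034). These counts overstate the agreement. Each probe's difference equalled the main one with no filter, with all 8 values required or with outlier spots kept. It also did so with no array block, no dye term or a replicate block. The settings that left out a sample or an array reused the remaining samples. The count of genes called (7) was 14 and 15 with processed signals (quantile, 75th percentile), 0 with quantile over 8 channels, 2 with no filter, 3 with the strict filter, 23 with no array block, 18 with no dye term, 11 with the mean of probes, 23 at an adjusted p under 0.10 and 1546 at an unadjusted p under 0.05. Leaving out 1 sample gave 0 to 15 genes (0 without any 1 dexamethasone sample, 15 without saline 2), and leaving out array 1, 2 or 3 gave 143, 11 and 0. The count of probes called (7) was, in the same order, 15, 14, 0, 2, 2, 28 and 19, then 12 and 2625 by threshold; leaving out 1 sample gave 0 to 11 (4 without saline 3), and leaving out array 1, 3 or 4 gave 141, 0 and 2. With the replicate number as a block 5 genes and 0 probes were called; it changed no call among the named genes. Same-numbered samples did not pair (correlations -0.13 to 0.10). Medians moved with quantile over 8 channels (chaperones -0.20, steroid access -0.035, coregulators -0.31, the CRH family -0.12 and receptor targets -0.11), in the deposited table (chaperones 0.35, steroid access -0.14, coregulators 0.11, receptor targets 0.17), with all 8 values required (steroid access -0.10), and for coregulators without 1 sample (-0.092 without saline 3 to 0.024 without dexamethasone 4) and without array 4 (0.028). Signs turned for AVP without array 2 (0.10) and array 3 (0.68); for FKBP4 without array 2 (-0.048); for HSP90AB1 with all 8 values (-0.018); with quantile over 8 channels for POMC (-0.55), HSPA8 (-0.027), HSP90AB1 (-0.13), FKBP4 (-0.20), SRD5A1 (-0.035) and SGK1 (-0.089); and for SGK1 without saline 1 (-0.024), saline 2 (-0.013), dexamethasone 2 (-0.048) and 3 (-0.028), array 1 (-0.067) and array 3 (-0.066), against 0.087 without dexamethasone 4 and a highest value of 0.22 with processed signals scaled to the 75th percentile. The causes were not tested. Dim signals limit the precision: 13 of 32 receptor values and 1 of 8 CRH values were not well above background, and the middle and downstream NR3C1 probes rest on Cy5 alone for values above it. In the main processing, with its offset of 50, the 95% intervals of the ratio were 0.776 to 1.13 at the upstream NR3C1 probe, 0.953 to 1.36 for NR3C2 and 0.912 to 1.49 for CRH. They do not bound the change under other processing. With processed signals the log2 differences reached -0.39, 0.60 and 0.63 in the same order, each outside its interval.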

Other observations

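The array carries 5 probes for the expressed sequence tag EB376575 at chr3:25227169-25227306 of oryCun2, 3749 bases from the nearest NR3C1 probe. In 0 of 40 values were these well above background, while the NR3C1 probes were so in 7, 4 and 4 of 8 samples from the upstream to the downstream one.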
